A study of Mus musculus with 4 samples.

Results

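The genes described here build or mark cells with motile cilia. They were listed as 41 genes of the beating cilium and of ependymal cells because 1 of them, Cfap52, had stood out as lower in the cerebellum of Derlin-2 knockout mice, and the question was whether other genes of the ciliary axoneme shared that difference. The array held 63 probes for 39 of the 41 genes, out of 56605 probes and 22911 named genes in all, matched through the RefSeq accessions that the array lists. No probe was matched for Dnah12 or Ccdc40. For Ak7, Cfap54, Cfap61, Dnah1 and Spag17, no probe was well above background on both arrays of either group. That left 34 genes with a value, and all 34 were well above background on all 4 arrays. Because the difference between KO and control was in view when the list was drawn up, the differences below are descriptions and no test is given for single members.

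Total RNA of mouse cerebellum at postnatal day 28 was read on 4 one-colour Agilent arrays, 2 control and 2 KO, and all mice were C57BL/6. Controls were Derlin-2flox/flox. KO mice came from crosses of Derl2flox/flox mice with mice whose Cre recombinase is driven by the promoter of nestin, a gene of the precursors that give rise to neurons, glia and ependymal cells. The labels do not say whether the arrays of a group came from different mice, so the spread between them may be technical. In such bulk RNA, fewer cells of a type and less RNA per cell cannot be told apart.

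A motile cilium has a ring of outer microtubule doublets around a central pair. Inner and outer dynein arms make the doublets slide, radial spokes and the central apparatus pass signals between the middle and the arms, the nexin link ties neighbouring doublets, and proteins bound inside the microtubules, tektins among them, stiffen the wall. In the brain such cilia stand on ependymal cells, which line the ventricles and move cerebrospinal fluid, and in smaller tufts on the epithelium of the choroid plexus. FOXJ1 is the transcription factor that switches on much of the motile cilium programme, together with RFX factors, which bind a DNA element called the X-box.

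Values are log2 processed signal minus the 75th percentile of the array, and a gene is given by its brightest probe, so levels of different genes are not comparable. Groups are called separate when both KO values lie above, or both below, the values of both controls. The array labels were checked on Derl2: its brighter probe read 2.13 and 2.20 in control and 0.81 and 0.70 in KO, which left 37.6% of the control signal, and a second probe left 30.2%. The labels do not say which part of the gene is floxed, so where the probes lie relative to it is not known. Between 66.4% and 69.4% of spots were well above background on each array, and with 2 arrays a group all values have limited precision. Markers of the cerebellum were present throughout, with 8 of 8 granule cell and 7 of 7 Purkinje cell markers well above background on all 4 arrays. One control array stood apart: markers of choroid plexus epithelium were far higher on control replicate 2 than on the other 3 arrays. For members with separate groups, differences are also given without control replicate 2 where they pass 1.5-fold or move by over 1.5 times. For other genes such values are given in part.

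The Cfap52 promoter is shown because this gene had the largest difference of the list. Those of the tektin genes Tekt1 and Tekt2 are shown because their differences went in opposite directions. Each run holds the 250 bases before a RefSeq transcript start on build GRCm38.p6, all 3 on the minus strand. Capitals mark the letters GTTGCC, a core part of the X-box, or their reverse complement GGCAAC. The Cfap52 window is chr11:67965643-67965892, the Tekt1 window is chr11:72361883-72362132, from the start farthest upstream of 2 listed, and the Tekt2 window is chr4:126325689-126325938, from the start farthest upstream of 3 listed.
Cfap52: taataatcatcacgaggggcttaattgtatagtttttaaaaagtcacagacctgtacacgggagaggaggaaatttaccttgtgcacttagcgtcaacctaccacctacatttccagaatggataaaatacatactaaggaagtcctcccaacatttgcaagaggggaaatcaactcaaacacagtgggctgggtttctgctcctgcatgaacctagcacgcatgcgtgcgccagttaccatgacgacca
Tekt1: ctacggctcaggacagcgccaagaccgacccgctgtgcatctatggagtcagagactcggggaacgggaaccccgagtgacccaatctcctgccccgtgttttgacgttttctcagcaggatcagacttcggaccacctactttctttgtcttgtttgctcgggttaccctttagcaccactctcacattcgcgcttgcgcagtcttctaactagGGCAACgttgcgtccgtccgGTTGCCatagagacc
Tekt2: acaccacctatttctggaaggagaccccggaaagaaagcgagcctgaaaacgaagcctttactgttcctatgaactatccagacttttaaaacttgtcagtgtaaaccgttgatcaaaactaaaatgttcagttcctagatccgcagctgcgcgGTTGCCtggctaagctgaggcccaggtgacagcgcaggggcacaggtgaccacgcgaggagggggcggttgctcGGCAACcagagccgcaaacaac
The X-box letters were searched only as exactly GTTGCC or GGCAAC, and other forms of the element were not searched. These exact letters occur on both strands of the Tekt1 and the Tekt2 windows shown and are not in the Cfap52 window. They are also absent from the other Tekt1 window, chr11:72361297-72361546, and from the Tekt2 window chr4:126325436-126325685. The remaining Tekt2 window holds them. Any relation of the letters to the direction of a difference was not tested. A promoter entry was found for 35 of the 41 genes, and 9 of the 35 (25.7%) had the letters in at least 1 window, against 11.8% of the 27025 genes of the table. The forkhead letters GTAAACA or TGTTTAC, searched in the same way, were in windows of 2 of the 35 genes (5.71%), against 3.54% of all genes. A match of letters is a description and not evidence of binding, and no match says only that these letters are not in this window.

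Cfap52, which encodes a protein bound inside the microtubule doublet, had signals of −1.04 and −1.05 in control, while KO replicate 1 gave −2.57 and KO replicate 2 gave −2.30. The controls lay within 0.02 of each other and both KO arrays lay far below them. The control mean was −1.04 ± 0.012 (SD, n = 2). The KO mean was −2.44 ± 0.19 (SD, n = 2), a difference of −1.39 (SE 0.13), which left 38.1% of the control signal. This is the value that led to the list, and it supports nothing further. Without control replicate 2 the difference was −1.40. The spot of this probe on control replicate 1 lay in a patch of raised local background, and with patch spots left out the difference was −1.38. A second Cfap52 probe was well above background on 1 array alone and gives no value.

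Over the 34 measured genes, 18 were lower in KO with separate groups, 4 were higher with separate groups and 12 had groups that overlapped. The difference was below 0 for 25 of the 34, beside 63.9% of all genes, and its median was −0.41, beside −0.06 over all 16524 genes measured. Of all genes measured, 32.1% were lower and 13.8% were higher in KO with separate groups. At least 1.5-fold lower with separate groups were 8 of the 34, beside 2.58% of all genes, and 1 was at least 1.5-fold higher, beside 1.31%. Under limma with Benjamini-Hochberg adjustment, 0 of the 34 passed 0.05, and 0 of all 37516 probes (0%) did. At an unadjusted limma p under 0.05 there were 18 of the 34, beside 8.81% of all genes, and 5265 of all probes. The list was drawn up with this difference in view, so setting the 18 beside 8.81% cannot test the list. No conclusion about the list or its single members is drawn from these p-values. Cfap52 was the only member to differ by 2-fold or more with separate groups.

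**Figure D1:**
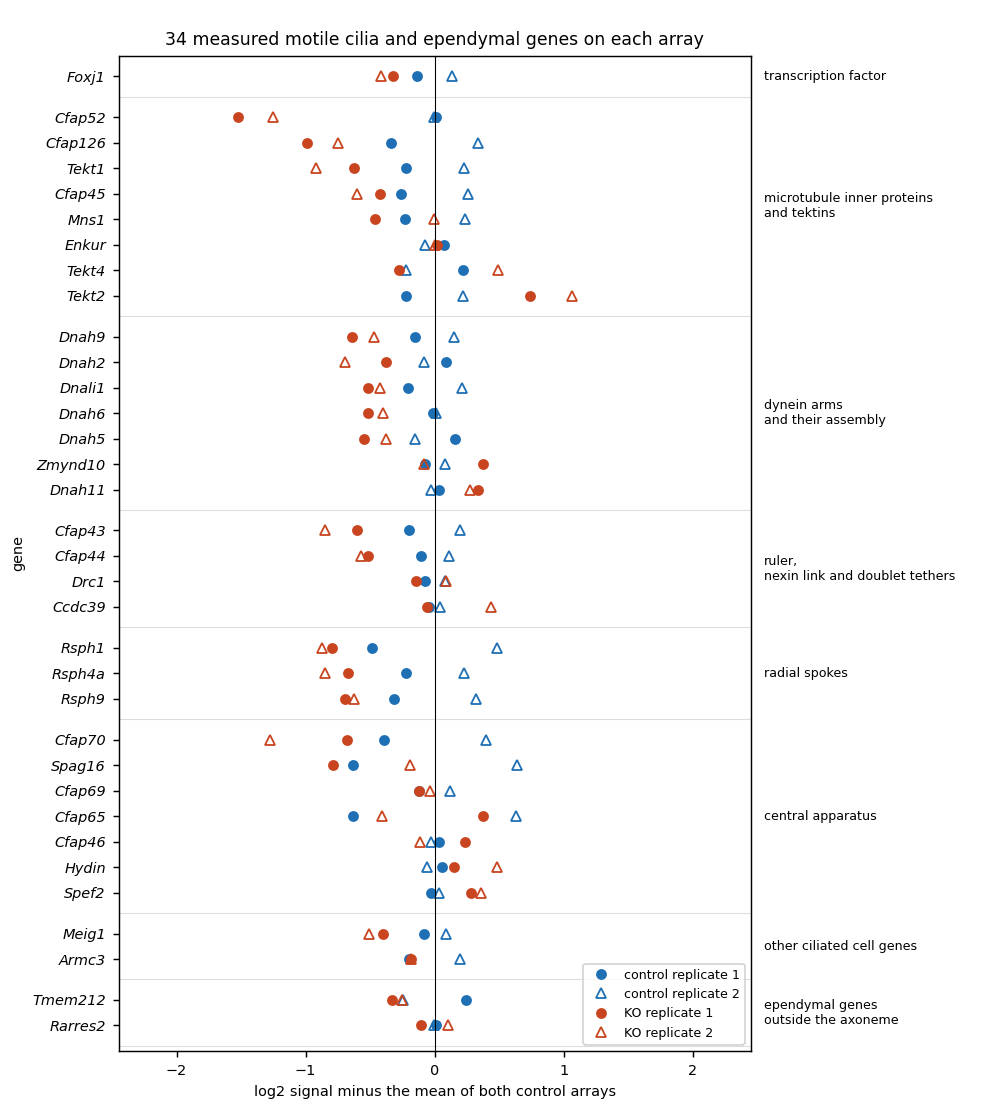
Log2 signal of each of the 34 measured genes on the 4 arrays, set against the mean of both control arrays (horizontal axis, log2; vertical line at 0), with genes grouped by role. Blue marks are control and red marks are KO; circles are replicate 1 and triangles replicate 2. Both KO marks lie left of both control marks for 18 genes, farthest for Cfap52, and right of them for 4, farthest for Tekt2.

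Foxj1, the regulator of the programme, read −1.34 and −1.07 in control and −1.53 and −1.62 in KO. Its groups were separate, with a difference of −0.37 (SE 0.14), smaller than the 1.5-fold limit. Without control replicate 2 the difference was −0.24.

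Among the proteins inside the microtubules, Cfap126 and Tekt1 were lower in KO and Tekt2 was higher. Cfap126, also called Flattop, read 0.36 and 1.03 in control and −0.29 and −0.05 in KO, with a difference of −0.87 (SE 0.26). Both KO arrays were below both controls, although the controls differed from each other by 0.67, and without control replicate 2 the difference was −0.53, inside the 1.5-fold limit. A second Cfap126 probe gave −0.59, also with separate groups. Tekt1, a tektin filament protein of the doublet, read −0.87 and −0.42 in control and −1.27 and −1.56 in KO, a difference of −0.77 (SE 0.21) that was −0.55, also inside the limit, without control replicate 2. Tekt2, another tektin, read −2.003 and −1.56 in control and −1.04 and −0.72 in KO, a difference of 0.90 (SE 0.21), so that KO stood at 187% of control. Its groups were separate in the direction opposite to Tekt1, and against control replicate 1 alone the Tekt2 difference was 1.12. Cfap45 was lower with separate groups (−0.51, SE 0.21), by −0.25 without control replicate 2. The groups overlapped for Mns1 at −0.23, for Enkur at 0.01 and for Tekt4 at 0.11. Without control replicate 2 these were at −0.0004, −0.06 and −0.12.

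**Figure D2:**
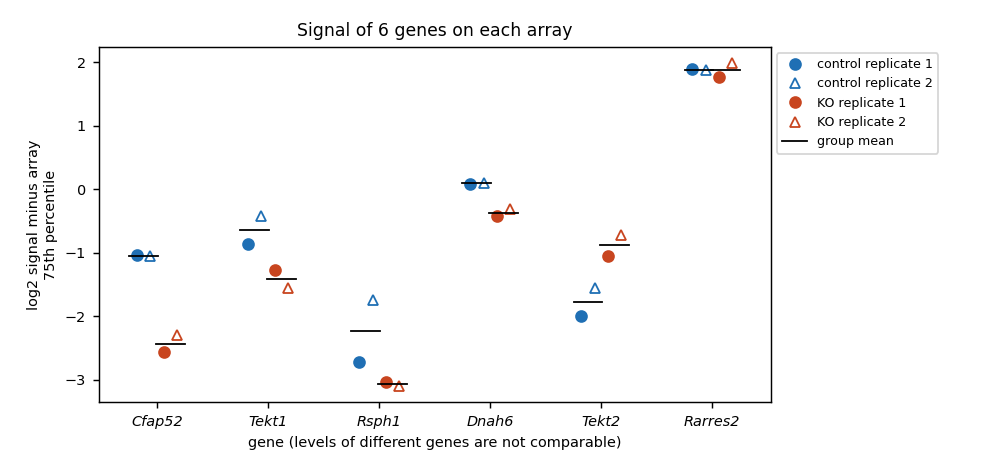
Log2 signal minus the 75th percentile of the array (vertical axis) for 6 genes; blue marks are control and red marks KO, circles replicate 1 and triangles replicate 2, and black lines are group means of 2 arrays. KO lies below control for Cfap52, Tekt1, Rsph1 and Dnah6 and above it for Tekt2, while the groups overlap for Rarres2; for Rsph1 the control arrays are far apart.

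Of the motor genes, 4 axonemal dynein heavy chains were lower in KO by a like amount. Dnah6, an inner arm heavy chain, read 0.08 and 0.11 in control and −0.42 and −0.31 in KO, with a difference of −0.46 (SE 0.10). The control arrays were nearly equal here, and a second Dnah6 probe gave −0.33 with separate groups. Dnah2, also of the inner arms, differed by −0.54 (SE 0.15). The outer arm chains Dnah5 and Dnah9 differed by −0.46 (SE 0.15) and −0.56 (SE 0.15), and Dnah5 by −0.31 without control replicate 1. Dnali1, a light chain of the inner arms, was lower by the same measure at −0.47 (SE 0.17), and at −0.26 without control replicate 2. All 5 had separate groups and stayed within 1.5-fold with both controls. Without control replicate 2, Dnah2 was at −0.62 and Dnah5 at −0.61, both past 1.5-fold. Dnah11, an outer arm chain, read −0.90 and −0.96 in control and −0.60 and −0.66 in KO and was higher in KO by 0.30 (SE 0.10). Zmynd10, which helps to assemble dynein arms in the cytoplasm, had overlapping groups at 0.15.

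The 3 measured radial spoke genes were lower in KO with separate groups, and their controls were far apart. Rsph1, a spoke head protein, read −2.72 and −1.75 in control and −3.03 and −3.10 in KO. The difference was −0.83 (SE 0.34), and against control replicate 1 alone it was −0.35. Rsph9, also of the spoke head, read 0.53 and 1.17 in control and 0.15 and 0.23 in KO, a difference of −0.66 (SE 0.24) that was −0.34 without control replicate 2. A second Rsph9 probe gave −0.56. Rsph4a, the third head protein, differed by −0.76 (SE 0.19) and by −0.53 against control replicate 1 alone. All 3 passed the 1.5-fold limit with both controls and none of the 3 did with control replicate 1 alone.

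The parts that set spacing and tie doublets were divided. Cfap43 and Cfap44, which tether dyneins to the doublet, were lower in KO with separate groups, at −0.73 (SE 0.19) and −0.55 (SE 0.12). Without control replicate 2, Cfap43 was at −0.53, inside the 1.5-fold limit. For Cfap44 a second, dimmer probe went the other way, at 0.48 with separate groups. Ccdc39, part of the ruler that sets the repeat along the doublet, and Drc1, of the nexin link, had overlapping groups at 0.19 and −0.03. A second Ccdc39 probe was higher in KO with separate groups, at 0.53 (SE 0.19).

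Genes of the central apparatus were mixed. Of the 7 measured genes, 1 was lower and 2 were higher in KO with separate groups, and the median was −0.02. Cfap70 read −4.43 and −3.64 in control and −4.71 and −5.31 in KO, a difference of −0.98 (SE 0.35). It was −0.58 without control replicate 2, just inside the 1.5-fold limit, and −0.35 under normexp background correction with quantile normalization. Hydin, a large protein of a central pair projection, was higher by 0.32 (SE 0.15). Spef2, another central apparatus protein, was higher by 0.32 (SE 0.10) on its brightest probe and by 0.25 on a second. The groups overlapped for Spag16 at −0.49, Cfap46 at 0.06, Cfap65 at −0.02 and Cfap69 at −0.08. Spag16 and Cfap65 differed between the 2 controls by 1.27 and 1.26, more than between the groups. Without control replicate 2, Spag16 was at 0.14 and Cfap65 at 0.61.

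Among other genes of ciliated cells, Meig1 was lower with separate groups (−0.46, SE 0.12), and Armc3 had overlapping groups at −0.19. Armc3 was at 0.01 without control replicate 2. Tmem212, an ependymal marker of the membrane, read −0.55 and −1.03 in control and −1.12 and −1.05 in KO, so that KO lay barely below control replicate 2. Its difference was −0.54 from control replicate 1 and −0.05 from control replicate 2. Rarres2, which encodes the secreted protein chemerin and is abundant in ependyma, read 1.89 and 1.88 in control and 1.78 and 1.99 in KO, a difference of −0.0022 (SE 0.12) with overlapping groups.

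By probe, 21 of the 44 measured probes were lower in KO with separate groups, beside 26.9% of all probes. More than 1 probe was measured for 8 of the 34 genes. For 5 of the 8 the probes had differences of the same sign, and for Cfap44, Cfap46 and Cfap69 they did not. The range between probes of a gene ran from 0.07 to 1.03, the widest for Cfap44.

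The 2 control arrays were then compared with each other. The members were higher on control replicate 2 in 24 of 34 genes, with a median difference of 0.23, beside 52.0% of all genes and a median of 0.01. At least 1.5-fold higher on that array were 6 of the 34, beside 2.94% of all genes. At least 1.5-fold lower on it were 0 of the 34, beside 487 of all 16524 genes. For genes lower in KO with separate groups, the highest array is a control by definition. In 14 of the 18 such members it was control replicate 2. The same share among all genes lower with separate groups was not worked out, so the 14 cannot be set against it. Over all 34 members, control replicate 2 was the highest array for 19 and control replicate 1 for 5. Beside these were 4898 and 4793 of all 16524 genes. The KO arrays also differed from each other: of the 34 members 18 were higher on KO replicate 2, and 4 differed by at least 1.5-fold. Beside these were 8178 and 1126 of all 16524 genes.

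Choroid plexus markers moved with that array. All 17 measured markers were higher on control replicate 2 than on control replicate 1, by a median of 3.12. Ttr, the transthyretin gene and the classic marker, read −1.23 on control replicate 1 and 6.82 on control replicate 2, against 0.33 and −2.87 in KO. The summed signal of the choroid list was 3.34 and 7.33 on the log2 scale in control and 3.36 and 3.37 in KO. On all 4 arrays 16 of the 17 were well above background. Red blood cell genes were also higher on control replicate 2, in 4 of 4, by a median of 0.61. Markers of meningeal fibroblasts and endothelium differed between the controls by medians of 0.06 and −0.06. In KO against both controls the choroid markers had a median of −1.78, with 16 of 17 below 0. At least 1.5-fold lower with separate groups were 6 of the 17, beside 2.58% of all genes. Without control replicate 2 the choroid median was −0.08. Some other cell types had medians below 0 in KO as well. Meningeal fibroblast markers had a median of −0.20, with 10 of 11 below 0 and 5 lower with separate groups. Red blood cell genes had a median of −0.33, with 4 of 4 below 0 and 1 lower with separate groups. Beside these, 63.9% of all genes were below 0 and 32.1% were lower with separate groups. Without control replicate 2 the fibroblast and red blood cell medians were −0.20 and −0.01. The part of these tissues in the member values was not tested. The choroid sum of control replicate 1 was like those of the KO arrays, but single markers differed. Both KO arrays were below control replicate 1 for 6 of the 17 markers and above it for 5, and its Ttr value lay between those of the KO arrays. The KO arrays are set against control replicate 1 below, and equal choroid content was not shown.

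**Figure D3:**
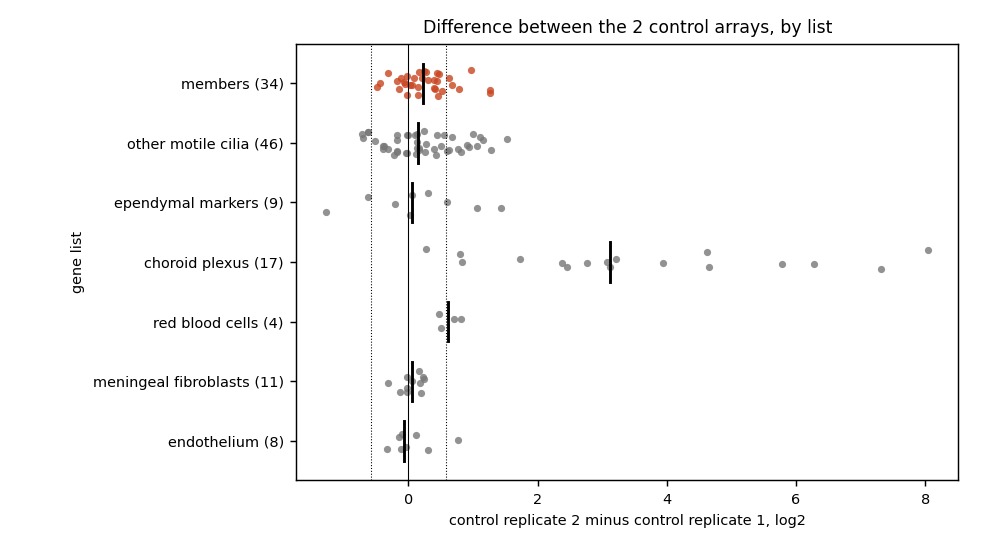
Control replicate 2 minus control replicate 1 (horizontal axis, log2) for each gene of 7 lists, with the number of measured genes in brackets; black bars are list medians and dotted lines mark 1.5-fold. Choroid plexus genes reach 8.05 with a median of 3.12, the members have a median of 0.23, and fibroblast and endothelial genes have medians of 0.06 and −0.06.

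Against control replicate 1 alone, both KO arrays were lower for 19 of the 34 genes and higher for 6, beside 44.6% and 24.8% of all genes. The median difference of the members was −0.25 in place of −0.41. At least 1.5-fold lower were 3 genes in place of 8, namely Cfap52, Dnah2 and Dnah5, beside 3.74% of all genes under the same comparison. Cfap52 alone was in both counts. On the higher side, Tekt2 was at 1.12 and Cfap65 at 0.61 against control replicate 1 alone, both past 1.5-fold. Without control replicate 1 the members' median was −0.47. By pair of arrays, the members' median was −0.26 and −0.25 for KO replicates 1 and 2 against control replicate 1, and −0.43 and −0.48 against control replicate 2. Dnah6 differed by −0.45 from control replicate 1 and by −0.47 from control replicate 2, while Rsph1 differed by −0.35 and −1.32.

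Related genes were read from lists of other cilia genes. Beside the counts of these lists, 32.1% of all genes were lower and 13.8% higher with separate groups, and 2.58% were at least 1.5-fold lower. Of the 46 measured among 71 other motile cilia genes, 22 were lower in KO with separate groups and 1 was higher, with a median of −0.32. At least 1.5-fold lower were 9 with all 4 arrays. Fewer passed without control replicate 2, and more without control replicate 1 or without KO replicate 2. For the runs in which more passed, the share of all genes was not worked out, so no comparison with it can be made. Without control replicate 2 the genes past 1.5-fold were in part other genes. Of the 9, only Ak8 and Ccdc146 then stayed past 1.5-fold. Ccdc146, named after its values were seen, was at −0.72. The largest differences were those of Cfap73 (−1.06, SE 0.41), Dydc2 (−1.05, SE 0.53) and Ak8, an adenylate kinase of cilia (−1.04, SE 0.24). Ak8 read −3.56 and −2.93 in control and −4.35 and −4.21 in KO, while the controls of Dydc2 were 1.52 apart. The differences without control replicate 2 were −0.48 for Cfap73, −0.29 for Dydc2 and −0.72 for Ak8, and of these Ak8 alone passed 1.5-fold. The 1 higher gene, Cfap157, was well above background on 3 arrays and read −6.55 and −5.54 in control and −5.07 and −5.20 in KO; it was named after its values were seen. It was higher by 0.91 (SE 0.36), and by 0.41 without control replicate 1.

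Regulators of multiciliation were read next. Of 15 measured, 6 (40.0%) were lower and 2 (13.3%) higher with separate groups, beside 32.1% and 13.8% of all genes. The median was −0.18. Ccno, a cyclin-like protein needed to make many basal bodies, read −2.40 and −2.10 in control and −2.95 and −2.87 in KO, a difference of −0.66 (SE 0.14), and was the 1 gene past 1.5-fold. It was at −0.51 without control replicate 2, and 0 of the 15 passed. Deup1, which builds the deuterosomes from which basal bodies form, differed by −0.52 (SE 0.13) and E2f4 by −0.26 (SE 0.16), the latter by −0.44 without control replicate 2. Cep152 and Ankrd54 were higher by 0.37 (SE 0.14) and 0.18 (SE 0.13), and Ankrd54 by 0.06 without control replicate 2.

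Genes of intraflagellar transport and of the primary cilium, which nearly every cell carries, stayed close to 0. All 40 were measured, and 11 (27.5%) were lower and 2 (5.0%) higher with separate groups, beside 32.1% and 13.8% of all genes. Past 1.5-fold were 0 in either direction, and the median was −0.01. Ift22 (−0.28, SE 0.11), Ift20 (−0.27, SE 0.15) and Wdr35 (−0.27, SE 0.13) had the largest negative differences with separate groups, and Dync2h1 (0.19, SE 0.11) and Traf3ip1 (0.09, SE 0.10) the positive ones. The difference between these lists and the members was not tested.

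**Figure D4:**
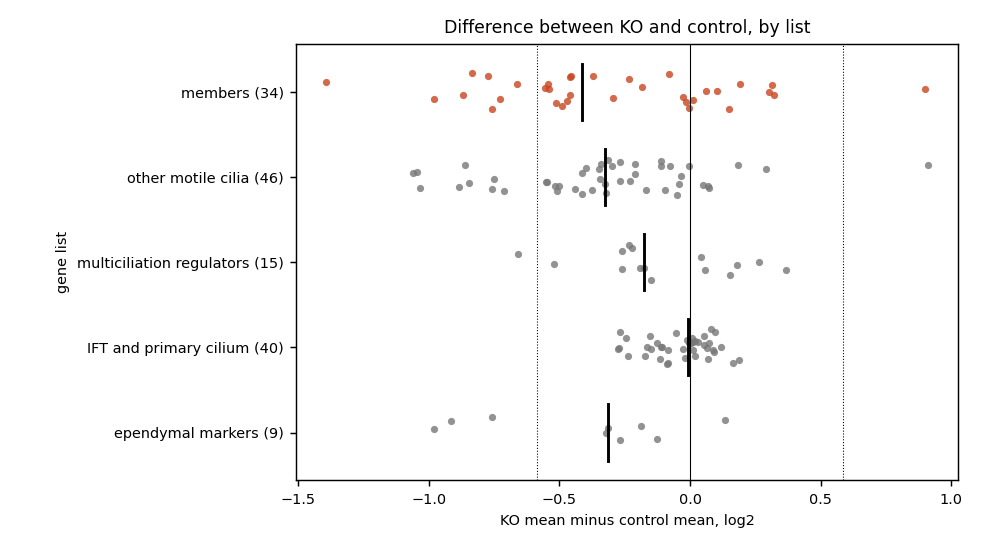
KO mean minus control mean (horizontal axis, log2) for each gene of 5 lists, with the number of measured genes in brackets; black bars are medians and dotted lines mark 1.5-fold. The members and the other motile cilia genes have medians of −0.41 and −0.32, and the primary cilium genes all lie within 1.5-fold around a median of −0.01.

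Markers of ependymal cells outside the member list were compared too. Of 9 measured, 5 were lower with separate groups and 0 were higher, beside 32.1% and 13.8% of all genes. The median was −0.32. Odf3b read 0.77 and 0.79 in control and 0.51 and 0.41 in KO, with controls close together and a difference of −0.32 (SE 0.10). Mia differed by −0.32 (SE 0.17) with separate groups, by −0.16 without control replicate 2, and Tm4sf1 by −0.13 with overlapping groups. Dynlrb2, Vwa3a and Nek5 were the 3 past 1.5-fold, named after their values were seen. Without control replicate 2 they were at −0.46, −0.45 and −0.20, 0 of the 9 passed 1.5-fold, and the median of the 9 was −0.31. Dynlrb2, Ccdc153 and Sntn are also among the 71 other motile cilia genes.

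Position was the last feature compared. Cfap52, Dnah2, Dnah9 and Tekt1 lie on chromosome 11, as Derl2 does, and all 4 were lower in KO with separate groups. In the RefSeq gene order, 15 protein-coding genes lie between Derl2 and Tekt1, 87 between Derl2 and Dnah2, 122 between Derl2 and Cfap52 and 140 between Derl2 and Dnah9. Of the 129 other genes measured from Dnah9 to Tekt1, 44 (34.1%) were lower in KO with separate groups and 4 (3.10%) were at least 1.5-fold lower, beside 32.1% and 2.58% of all genes, with a median difference of −0.07. Foxj1 lies farther off on the same chromosome.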

How the data were processed

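Per the file headers, the deposited scanner files were written by Agilent Feature Extraction 12.1.1.1; the submitters' processing notes give version 10.7.1.1. Cy3-labelled RNA (150 ng per sample, per the labels' protocols) was read on 1 slide, with the arrays of each group side by side, so position and group cannot be told apart. The processed signal in the deposited files is a linear intensity, not normalized between arrays, and other columns of the deposited files flag spots. The authors' deposited series table holds log2 values with unstated steps; differences between its columns matched those of the scanner values within 0.01.

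After control spots and outlier flags were left out, log2 values of the spots of each probe were averaged, and the 75th percentile of each array was subtracted. Probes well above background on both arrays of a group were kept (37516). Names came from a RefSeq table of GRCm38.p6, which matched 91.9% of 35886 accessions. The fit of KO against control used limma 3.58.1 (R 4.3.3), tested on simulated data with known changes; 2 against 2 arrays cannot give a permutation p below 0.333. The brightest kept probe stood for a gene. Members, lists and alternatives were chosen with earlier results of these data known. The rule for named genes took every measured member, up to 3 separate genes per direction and pathway list, and the 3 brightest markers per cell type; other names are marked as chosen later. Each alternative, such as another scaling, filter or left-out array, was recomputed.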

Additional observations from a re-analysis of the deposited data

How the results depend on the processing

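The 8 lower members, and Cfap52 among them, kept their direction under every alternative run, and the median of the members stayed below 0. Under each scaling run, the median over all probes shifted by at most 0.067. Normexp background correction with an offset of 50, run together with quantile normalization, moved several values: the Cfap52 difference was −1.02, the members' median −0.19, the median of the other motile cilia genes −0.18, and 3 members (Cfap52, Cfap126 and Tekt1) passed the 1.5-fold limit. Quantile normalization by itself gave a members' median of −0.39 and the same 8 members past the limit. At a 2-fold limit 1 member passed. With no filter on dim probes a ninth member, Cfap54, passed. With 1 array left out, separate groups are easier to reach, for all genes as for members. The share of all genes past the limit was worked out without control replicate 2 and not without any other array. The counts of members in those other runs therefore cannot be set against all genes. Leaving out 1 array at a time gave between 3 and 14 members past the limit, the lowest without control replicate 2 and the highest without control replicate 1, with a members' median from −0.47 to −0.25, a Cfap52 difference from −1.53 to −1.26 and a median of the other motile cilia genes from −0.35 to −0.22; the cause was not tested. Adjusted p-values from limma called 0 probes in the report, and called 1 under quantile normalization, the median of bright probes, spike-in scaling, normexp and omission of patch spots, 4 under an intensity trend with robust variances, and 0 to 98 with an array left out, and no member probe was among them in any setting. The replicate numbers are not known to pair the samples (correlation of deviations 0.12 over 2 pairs); with the replicate number as a block the count was 0 and the members' median −0.41. All alternatives were chosen with earlier results of these data known. Rsph4a moved to −0.28 under normexp with quantile normalization.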
